A study of Homo sapiens with 6 samples.

Results

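The mitochondrial ribosomal protein genes are the nuclear genes whose symbols begin with MRPL or MRPS and a digit. They were taken from the GENCODE annotation of hg19 as protein-coding genes whose symbol has no hyphen, which gave 78 of 20162 coding genes, 49 with MRPL symbols and 29 with MRPS symbols. The mitoribosome translates the few messenger RNAs that the mitochondrial genome encodes, all of which specify subunits of the oxidative phosphorylation complexes. Its ribosomal RNAs come from mitochondrial DNA, whereas all of its proteins are encoded in the nucleus, made in the cytosol and imported. MRPL symbols mark proteins assigned to the large subunit and MRPS symbols those assigned to the small subunit. There are known exceptions, since the products of MRPS18A and MRPS30 sit in the large subunit of the human mitoribosome and that of MRPS36 is a component of the 2-oxoglutarate dehydrogenase complex. The counts given here follow the symbols.

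SMARCA4 is the ATPase of the SWI/SNF chromatin remodelling complex, and it was mapped by ChIP-seq in K562, an established human chronic myelogenous leukaemia line. Libraries were made from 3 SMARCA4 immunoprecipitates and 3 inputs, after double crosslinking (30 min in 2 mM disuccinimidyl glutarate, then 10 min in 1% formaldehyde) and shearing of the chromatin to 150 to 400 bp. The replicates are called technical in the deposited description, which counts a single input, and biological in the text of the study. The data are a single list of 28265 regions shared by 2 or more of the 3 replicates, given as coordinates without height, read number or value per replicate, so the list itself holds neither the depth nor the spread between replicates. Ranges in parentheses after shares are 95% Wilson intervals and those after medians 95% binomial intervals, and both cover counting error only. Expression of the genes was not analysed.

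Some of these genes start head to head with a coding gene on the other strand, with 5 to 989 bases between the starts. The whole stretch between the starts is shown for some of the closest pairs and for MRPL46 and MRPS11, which were added after their values were seen. It allows MRPL47 and NDUFB5, which had no SMARCA4 peak within 1 kb, to be read beside pairs that had 1. Each stretch is given on the strand of the first-named gene, from the partner's start towards that of the member, and holds no annotated exon. Capitals mark the 7 letters CCGGAAG, searched on both strands as an ETS motif, which were present only between MRPL47 and NDUFB5 among these 4 stretches. MRPL27, with a peak, has the same letters just beyond its stretch, at -29 and 15 bp from its start, so they do not separate the pairs with a peak from the pair without. The positions are chr17:48450569-48450580 for MRPL27, chr5:1801481-1801520 for MRPL36, chr3:179322438-179322477 for MRPL47 and chr15:89010622-89010683 for MRPL46, each on the minus strand of hg19.
MRPL27 and EME1, with a peak: gatagcggaagt
MRPL36 and NDUFS6, with a peak: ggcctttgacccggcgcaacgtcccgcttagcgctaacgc
MRPL47 and NDUFB5, without a peak: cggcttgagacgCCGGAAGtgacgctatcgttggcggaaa
MRPL46 and MRPS11, with a peak: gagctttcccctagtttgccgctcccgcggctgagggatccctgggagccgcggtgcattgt

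SMARCA4 peaks lay at most mitochondrial ribosomal protein genes. A peak overlapped the window of 1 kb on either side of the gene 5' end, the outermost start of any annotated transcript, at 62 of the 78 genes (79.5%, interval 69.2 to 87.0%). The background is 61.9% of the 11600 CpG-rich coding promoters and 42.3% of all coding genes. CpG-rich here means a GC content of at least 50% and a CpG observed/expected ratio of at least 0.6 over 500 bp on either side of the 5' end. Of the mitochondrial ribosomal protein promoters 66 met this definition, and 53 of these had a peak (80.3%, 69.2 to 88.1%), so that the lower bound lay above the share of all CpG-rich promoters (interval 61.0 to 62.7%). Of the 12 other members 9 had a peak (75%, 46.8 to 91.1%), against 1350 of the 8562 coding promoters that are not CpG-rich (15.8%, 15 to 16.6%). Several of the 12 lay just under a limit, such as MRPL55 with a ratio of 0.596 and MRPL1 with 48.4% GC. Others lay far below, such as MRPL28 with a ratio of 0.181. The large and small subunits did not separate. A peak was found at 38 of 49 MRPL genes (77.6%, 64.1 to 87.0%) and at 24 of 29 MRPS genes (82.8%, 65.5 to 92.4%).

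**Figure D1:**
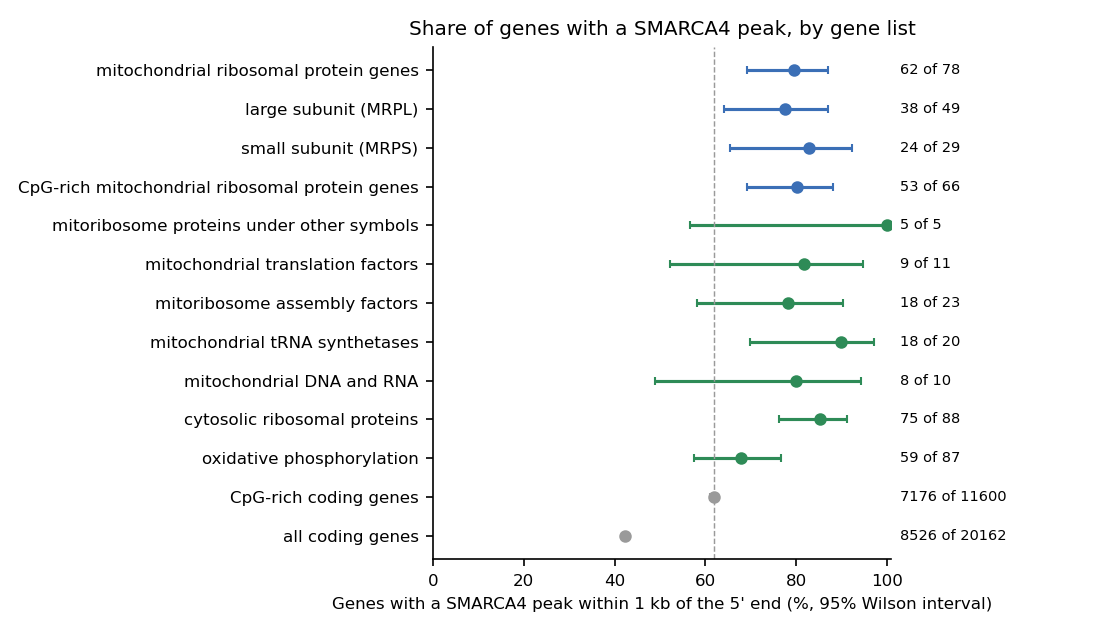
Share of genes with a SMARCA4 peak within 1 kb of the 5' end for each gene list, with 95% Wilson intervals and the counts at the right. The blue points of the mitochondrial ribosomal protein genes lie near 80.3% and right of the dashed line at 61.9%, the share of all CpG-rich coding promoters.

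Other genes of mitochondrial translation had similar shares. Among 59 such genes in 4 lists, 50 had a peak (84.7%, 73.5 to 91.8%). All 5 mitoribosome proteins annotated under other symbols had a peak, namely DAP3, PTCD3, AURKAIP1, CHCHD1 and GADD45GIP1. Of the translation factors, 9 of 11 had a peak, including the elongation factors TUFM, TSFM and GFM1. The exceptions were MTRF1, a release factor homologue, and MTFMT, which formylates the initiator methionyl-tRNA. Of the assembly factors 18 of 23 had a peak, and those without were MTERF4, GTPBP10, RPUSD4, METTL17 and NGRN. Among the mitochondrial tRNA synthetases and amidotransferase subunits 18 of 20 had a peak, with the amidotransferase subunits GATB and QRSL1 lacking 1. For mitochondrial DNA and RNA maintenance the count was 8 of 10, without the helicase gene TWNK and the RNA stability factor SLIRP. Cytosolic ribosomal protein genes had a peak at 75 of 88 genes (85.2%, 76.3 to 91.2%) and nuclear oxidative phosphorylation genes at 59 of 87 (67.8%, 57.4 to 76.7%). The interval of the last overlapped those of both ribosomal lists, and the differences between lists were not tested.

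The peaks sat on the gene start. At the 62 promoters with a peak, the 5' end itself lay inside a peak in 51 (82.3%, 71.0 to 89.8%), against 77.5% (76.5 to 78.4%) at CpG-rich promoters. The nearest peak centre was a median of -9.75 bp from the 5' end (interval -60 to 37.5 bp, negative being upstream on the gene strand), and 33 of the 62 centres were upstream. For CpG-rich promoters the median was -13.5 bp (-18.5 to -8.5 bp). The centre was within 200 bp at 48 of 62 members (77.4%, 65.6 to 86.0%), compared with 67.6% (66.6 to 68.7%). The closest centres were those of MRPS16, at -2 bp, and of MRPL58, at -3 bp. MRPL58 is a peptidyl-tRNA hydrolase that frees stalled mitoribosomes, and MRPS16 is the counterpart of bacterial ribosomal protein S16. MRPL27 at 5.5 bp, MRPL14 at 11 bp and MRPL33 at 16.5 bp followed, the last tied with MRPS35 at -16.5 bp.

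**Figure D2:**
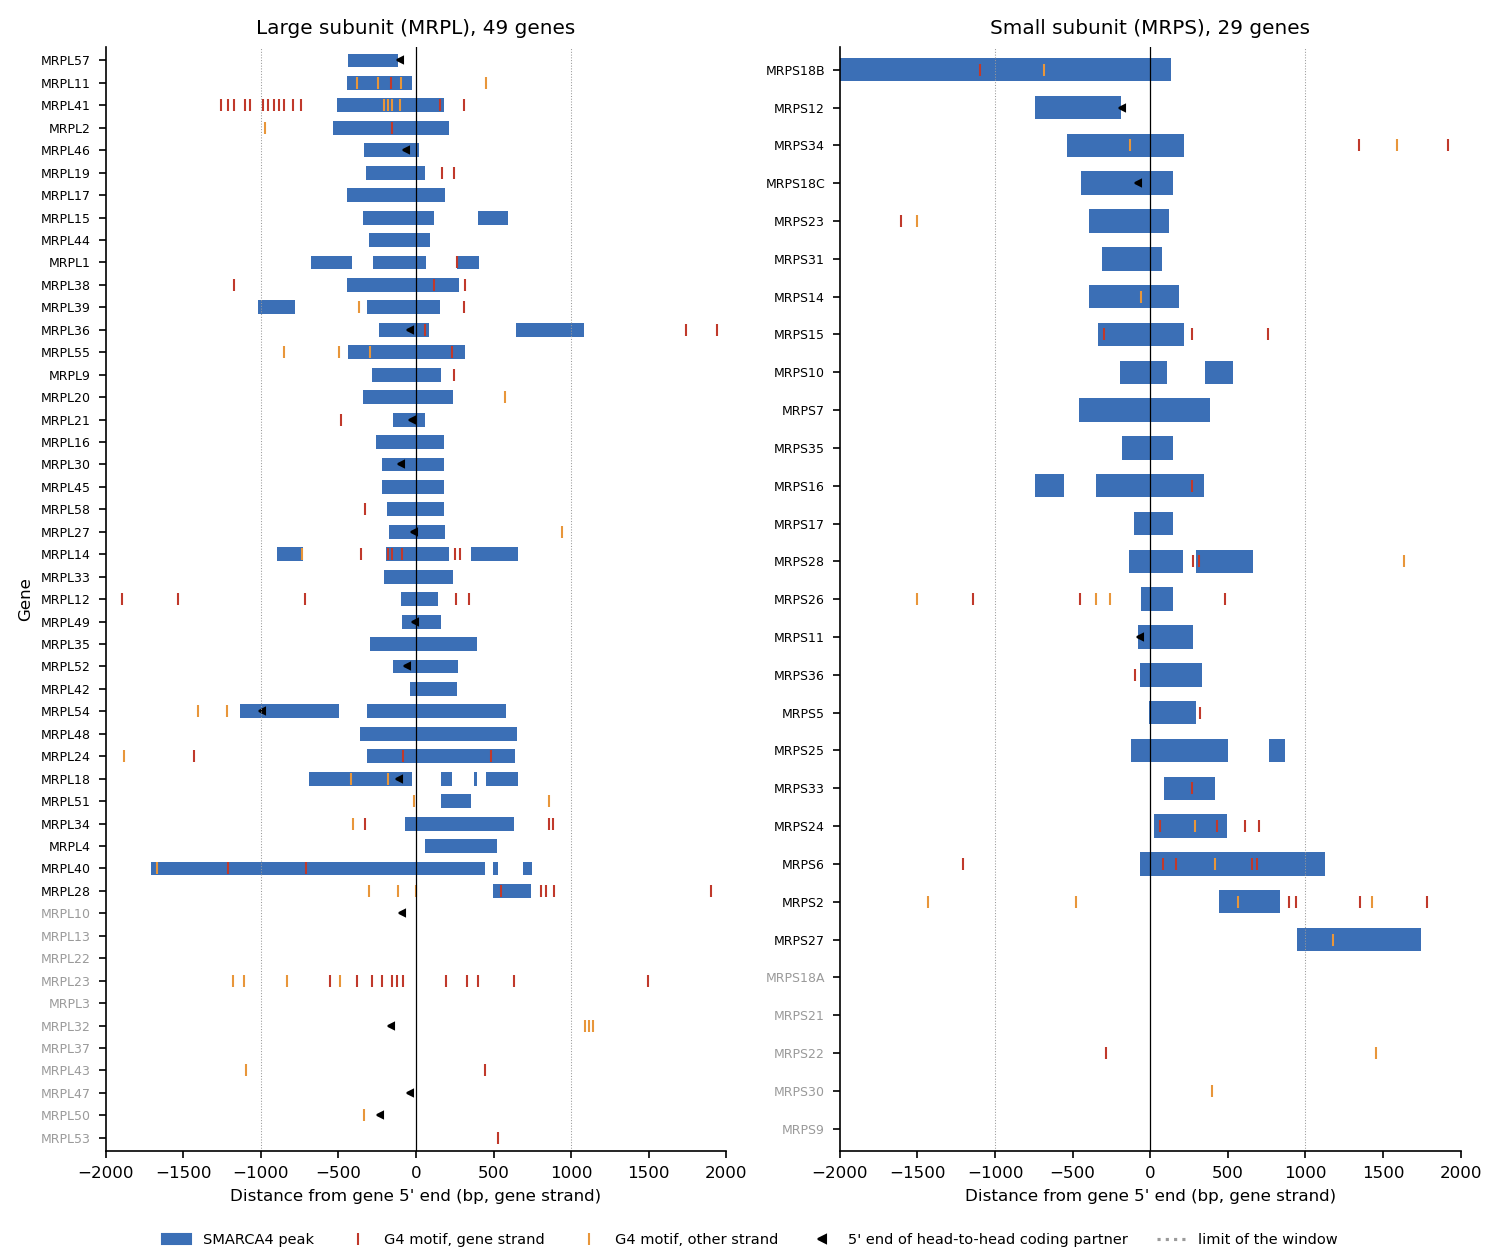
SMARCA4 peaks (blue bars) at the 78 genes against distance from the 5' end in bp, with MRPL genes at the left and MRPS genes at the right, ordered by the centre of the nearest peak and with genes without a peak last, in grey. Red and orange ticks are G4 motifs on the gene strand and the other strand, triangles are the starts of head-to-head coding partners, and 51 of the 62 genes with a peak have a bar across 0.

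The peaks, as listed, were not wide. Each is a region shared by 2 or more of the 3 replicates. Widths and numbers of peaks therefore also depend on how the replicates overlapped, which was not tested. A peak at MRPL18 was 18 bp wide, shorter than the sheared chromatin fragments. The 78 distinct peaks in the windows, by coincidence as many as the genes, had a median width of 399 bp (350 to 458 bp), against 444 bp (434 to 454 bp) for the 8023 peaks at CpG-rich promoters. Restricted to the peak whose centre was nearest the 5' end, the medians were 417 bp (377 to 515 bp) and 506 bp (495 to 515 bp). Both medians of the members were the lower, with overlapping intervals. When peaks up to 500 bp apart were merged, the median width of the members' peaks rose from 399 to 515 bp (403 to 693 bp). Chosen by centre, the peak of MRPL40 was 32 bp wide and that of MRPL18 75 bp, although at both a wider peak lay closer by its edge. At cytosolic ribosomal protein genes the peak chosen in this way had a median width of 568 bp (486 to 624 bp). Of the 78 peaks 4 reached 1000 bp (5.13%, 2.01 to 12.5%), compared with 11.7% at CpG-rich promoters, while peaks under 200 bp were as frequent in both (14.1% and 14.6%). Coverage by peaks fell off on both sides. At 200 bp downstream 46.8% of the members with a peak were still covered (34.9 to 59.0%), against 56.9% of CpG-rich promoters, and at 300 bp downstream 29.0% (19.2 to 41.3%) against 42.6% (41.4 to 43.7%). At 400 bp upstream the values were 22.6% (14.0 to 34.4%) and 33.3%, and at 450 bp upstream 14.5% (7.83 to 25.3%) and 27.9%. The background lay above the members' interval at some of these distances and within it at others. A single peak was found at 50 of 78 genes, and 12 of the 62 with a peak had more (19.4%, 11.4 to 30.9%), against 26.5% at CpG-rich promoters, a value within the members' interval. Of these 12 genes 8 had 2 peaks, 3 had 3 (MRPL1, MRPL14 and MRPL40) and MRPL18 had 4.

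**Figure D3:**
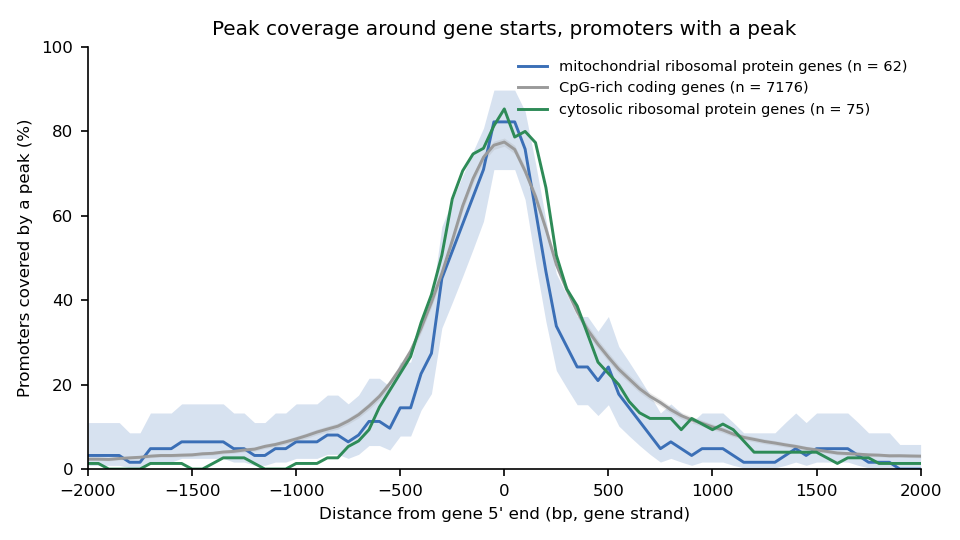
Percentage of promoters covered by a SMARCA4 peak at each distance from the gene 5' end, in bp along the gene strand, among promoters with a peak. Shading is the 95% Wilson interval, and the curve of the 62 mitochondrial ribosomal protein genes reaches 82.3% at the start, against 77.5% for CpG-rich genes.

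A few large-subunit and small-subunit genes departed from this form. MRPS18B, a homologue of bacterial S18, had the widest peak, 3480 bp at chr6:30582272-30585751, which ran from -3345 to 134 bp around the start and put the centre at -1605.5 bp. MRPL40, which lies in the region deleted in DiGeorge syndrome, had a peak of 2153 bp at chr22:19418359-19420511, and its start lay inside it. MRPS6 followed with 1196 bp. That peak began 68 bp upstream and ended 1127 bp downstream, and it also held the start of SLC5A3, the sodium/myo-inositol cotransporter gene, 354 bp into MRPS6. MRPL48 had a peak of 1011 bp and MRPL24 of 950 bp. By the widest peak of each gene, the lowest value was 194 bp, at MRPL51, followed by MRPS26 with 205 bp, MRPL21 with 208 bp, MRPL12 with 238 bp and MRPL28 with 246 bp. MRPL12 forms the stalk of the large subunit.

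Where the 5' end was outside every peak, another annotated start of the gene was often inside 1. There were 11 such genes among the 62, and in 7 of them the start of the Ensembl canonical transcript did lie in a peak. At MRPL11, 1 of the 7, that start was 27890 bp away, in a separate region of 237 bp outside the window. MRPS27, which encodes a pentatricopeptide repeat protein, is the extreme case. Its peak of 800 bp began 945 bp downstream, so that it was the member closest to the limit of the window from inside, and its centre lay 1344.5 bp from the 5' end. The canonical start, 1477 bp from the 5' end, was in that peak, which also held the start of PTCD2 on the other strand. MRPS2 had its centre at 639 bp and its canonical start, 698 bp away, in the peak. MRPL28, the next closest to the limit, had a gap of 493 bp to its peak, and the canonical start 751 bp away was 13 bp outside it. From outside the limit, MRPL22 came closest, with the nearest peak 2687 bp away, and then MRPL53, with 7071 bp. Measured from canonical starts, an alternative chosen after seeing the data, 63 of 78 genes had a peak and 59 of these 63 starts lay inside it (93.7%, 84.8 to 97.5%). For CpG-rich genes the share was 79.7% (78.7 to 80.6%). The median centre moved to -60 bp (-113.5 to -46.5 bp), against -61.5 bp at CpG-rich genes, and 48 of the 63 centres were upstream (76.2%, 64.4 to 85.0%), against 64.6% (63.5 to 65.8%).

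The 16 genes without a peak were 11 MRPL and 5 MRPS genes. They include core proteins with bacterial counterparts, MRPL3, MRPL10, MRPL13, MRPL22, MRPL23, MRPL32, MRPS9 and MRPS21. MRPL22 and MRPL23 line the exit of the nascent peptide tunnel, and MRPL10 anchors the stalk. The others, not sorted by whether they have such counterparts, were MRPL37, MRPL43, MRPL47, MRPL50, MRPL53, MRPS18A, MRPS22 and MRPS30. For most the nearest peak was within 100 kb, with a gap of 9651 bp at MRPL10, 9718 bp at MRPL32, 10075 bp at MRPL43, 10630 bp at MRPL47, 15017 bp at MRPS18A and 24731 bp at MRPS21. MRPL23, MRPL50, MRPS22 and MRPL3 followed with 31767, 63923, 60714 and 99472 bp. In contrast, the gap was 291572 bp at MRPS9, 1205587 bp at MRPS30 and 2382614 bp at MRPL13. These genes therefore stand in long stretches without any region in the list. MRPL37 is the only gene of the 16 that gained a peak at its canonical start, 16126 bp downstream of the 5' end and inside a region of 479 bp at chr1:54665548-54666026. MRPS22, mutated in a combined oxidative phosphorylation deficiency, has its canonical start 338214 bp from the 5' end, and this start was 4306 bp from the nearest peak.

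Base composition did not set the peak-free genes far apart. The median promoter GC content was 56.8% over all members (55.1 to 58.9%), lower than the 63.9% (63.7 to 64.1%) of CpG-rich promoters. It was 57.8% (55.8 to 59.4%) with a peak and 54.5% (50.3 to 60.9%) without. CpG observed/expected was 0.771 (0.742 to 0.799) over members and 0.797 (0.794 to 0.8) at CpG-rich promoters. The values ranged from 37.3% GC and a ratio of 0.175 at MRPS27 to 77.3% GC at MRPL23 and a ratio of 1.01 at MRPS30. Within GC classes the CpG-rich members had a higher share than CpG-rich promoters of the same class each time, although the intervals overlapped in every class, each of which holds few members. The counts were 15 of 21 at 50 to 55% GC (71.4%, against 60.3%), 18 of 21 at 55 to 60% (85.7%, against 64.4%) and 8 of 10 at 60 to 65% (80%, against 63.2%). At 65 to 70% they were 5 of 6 (83.3%, against 62.0%), and at 70% or more 7 of 8 (87.5%, against 58.5%).

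**Figure D4:**
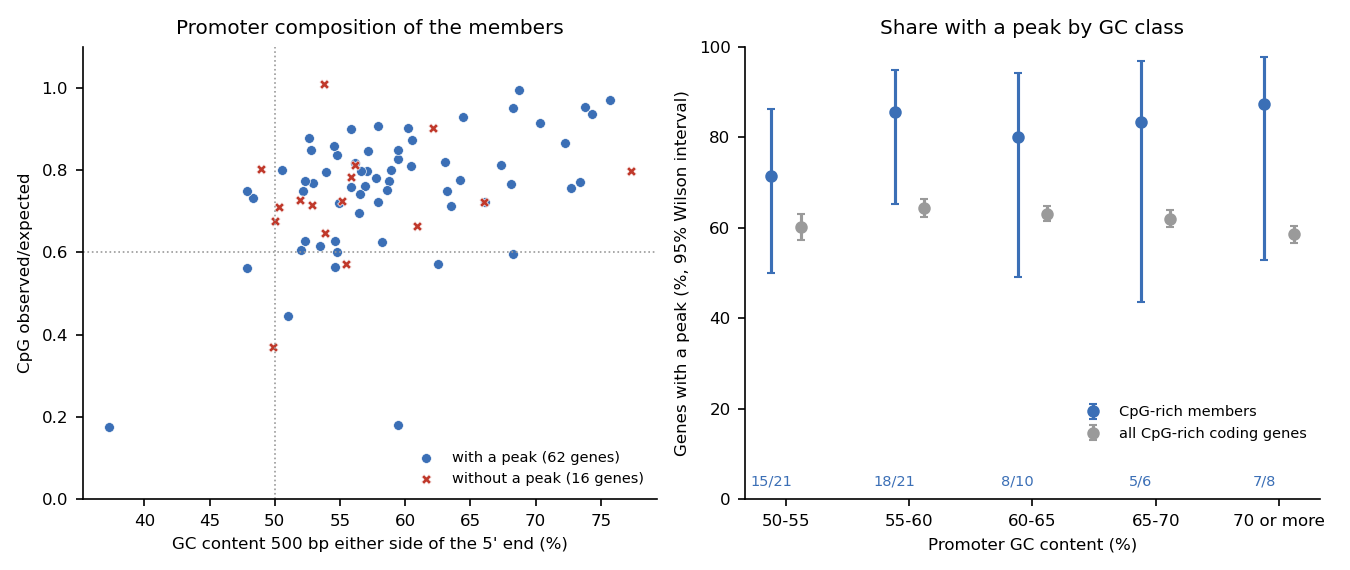
Left, GC content and CpG observed/expected over 500 bp on either side of the 5' end for the 78 genes, with and without a peak, dotted lines marking the limits of 50% and 0.6. Right, share of CpG-rich genes with a peak in each GC class with 95% Wilson intervals, where the members (blue) are above all CpG-rich coding genes (grey) in each class.

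G-quadruplex (G4) motifs were less frequent than at CpG-rich promoters. The search was for 4 tracts of 3 or more guanines, separated by 1 to 7 bases each, in both strands, and a match marks a sequence that can fold, with no information on whether it does. At least 1 motif lay within 1 kb of the 5' end in 41 of 78 members (52.6%, 41.6 to 63.3%), compared with 79.9% (79.2 to 80.7%) of CpG-rich promoters. The members also had a lower GC content, so the shares are given by GC class for the 66 CpG-rich members, of which 36 had a motif. At 50 to 55% GC 8 of 21 CpG-rich members had a motif (38.1%, 20.8 to 59.1%) against 50.7%. At 55 to 60% it was again 8 of 21 (20.8 to 59.1%) against 63.7% (61.8 to 65.7%), wholly below the background. At 60 to 65% the CpG-rich members had 8 of 10 against 78.9%, and at 65 to 70% they had 4 of 6 against 90.9%. At 70% or more all 8 CpG-rich members had 1 against 97.9%. Among the peaks, 23 of 78 held a motif (29.5%, 20.5 to 40.4%), compared with 44.1% (43.1 to 45.2%) at CpG-rich promoters. Counted only within 100 bp of the peak centre, it was 15.4% of the peaks (9.03 to 25%), against 26.0% (25 to 26.9%). With loops of up to 12 bases, motifs lay in 44.9% of the peaks and near 75.6% of the members, against 60.7% and 93.3% at CpG-rich promoters, so the order was the same. Cytosolic ribosomal protein genes, with a similar median GC content of 56.9%, had a motif within 1 kb in 46.6% (36.5 to 56.9%), oxidative phosphorylation genes in 59.8% (49.3 to 69.4%), and the other lists of mitochondrial genes together in 68.1% (56.4 to 77.9%). Shares below that of CpG-rich promoters were therefore not limited to the mitochondrial ribosomal protein genes.

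Members with several motifs nearly all had a peak. A peak was present at 35 of 41 members with a motif (85.4%, 71.6 to 93.1%) and at 27 of 37 without (73.0%, 57 to 84.6%), and these intervals overlapped. By motif number, it was 20 of 21 with 2 or more motifs (95.2%, 77.3 to 99.2%) and 15 of 20 with 1 (75%, 53.1 to 88.8%), a split made after the values were seen. The intervals of the members overlapped between these classes. Among CpG-rich members the shares were 94.1% for 2 or more motifs, 73.7% for 1 and 76.7% for none. At all CpG-rich promoters the share was lowest for 2 or more motifs, with 59.1% (57.9 to 60.3%), against 64.8% (62.9 to 66.6%) for 1 and 66.4% (64.4 to 68.3%) for none. The guanine runs were on the gene strand in 76 of the 113 motifs within 1 kb (67.3%, 58.2 to 75.2%), against 53.9% (53.4 to 54.5%) of the 28405 motifs at CpG-rich promoters. Several motifs of 1 gene are not independent, and 26 of the 113 belong to MRPL23 and MRPL41, with 13 each. At members with a peak 41.1% of the motifs (31.7 to 51.1%) were wholly inside it, compared with 42.8%.

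MRPL23 was the only member with 2 or more motifs and no peak, and it is shown beside MRPL41, which has as many motifs and a peak. Both are GC-rich, and both have 13 motifs within 1 kb. MRPL41 had a peak of 693 bp across its start that held 5 of the motifs, tied for most with MRPS6, while at MRPL23 the nearest peak was 31767 bp away. The sequences are given on the strand of the guanine runs, with those runs in capitals, for the motifs in the MRPL41 peak and for 4 motifs of MRPL23 within 250 bp of its start. The MRPL23 set was chosen after its values were seen. At MRPL41, a plus-strand gene, the first 4 lie upstream on the minus strand at chr9:140446109-140446135, chr9:140446137-140446163, chr9:140446165-140446191 and chr9:140446216-140446238, and the last lies in an intron on the plus strand at chr9:140446470-140446496. The first 3 have the same 27 bases, so they are copies of a tandem repeat. At MRPL23, also on the plus strand, the 4 motifs shown are on the plus strand at chr11:1968281-1968302, chr11:1968371-1968397 and chr11:1968417-1968436, upstream, and at chr11:1968692-1968716, inside the gene. All coordinates are hg19.
MRPL41 motif at -209 bp: GGGGctcgcGGGGcGGGGctcgcGGGG
MRPL41 motif at -181 bp: GGGGctcgcGGGGcGGGGctcgcGGGG
MRPL41 motif at -153 bp: GGGGctcgcGGGGcGGGGctcgcGGGG
MRPL41 motif at -104 bp: GGGGcGGGGcGGGGctcgcGGGG
MRPL41 motif at 152 bp: GGGGcGGGGctggccGGGttcccGGGG
MRPL23 motif at -216.5 bp: GGGGccGGGagtgcGGGGcGGG
MRPL23 motif at -124 bp: GGGGtgcGGGacaggaGGGGGGcaGGG
MRPL23 motif at -81.5 bp: GGGGcGGGGcGGGcgcaGGG
MRPL23 motif at 196 bp: GGGGagcGGGGtGGGcgtccctGGG

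Other members followed MRPL41 and MRPS6 in the number of motifs in their peaks, MRPL11 and MRPL14 with 4 each and MRPL40 and MRPS24 with 3 each. The 5 motifs of MRPS6 lie between 80.5 and 687 bp downstream of its start, in introns except for 1 in an exon, so that the extension of the wide peak into the gene coincides with them. In the peak of MRPL11 the motifs lie between -382 and -95 bp, upstream of the 5' end. Of the 4 in the peaks of MRPL14, 3 are in the peak that covers the start. They are on the minus strand, which is the gene strand, at chr6:44095267-44095290, chr6:44095333-44095359 and chr6:44095362-44095380, and they follow each other without a gap of more than 50 bp.
MRPL14 motif at -89.5 bp: GGGGGaGGGGGagcGGGGGGaGGG
MRPL14 motif at -157 bp: GGGGGaGGGGGaGGGGGagtcgctGGG
MRPL14 motif at -182 bp: GGGttGGGGcGGGGcGGGG

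Head-to-head arrangement was more frequent among these genes than among CpG-rich promoters. A coding gene on the opposite strand started within 1 kb upstream of 17 of the 78 members (21.8%, 14.1 to 32.2%), compared with 13.0% (12.4 to 13.6%). Among cytosolic ribosomal protein genes the share was 13.6% (7.98 to 22.3%) and among oxidative phosphorylation genes 23% (15.4 to 32.9%). For the other lists of mitochondrial genes together it was 27.5% (18.4 to 39.0%). When overlapping starts up to 1 kb apart were also allowed, a choice made after seeing the data, it was 34.6% (25 to 45.7%), against 19.6% (18.9 to 20.4%) at CpG-rich promoters. By symbol, 14 of the 17 were MRPL and 3 were MRPS genes. A peak was found at 13 of the 17 (76.5%, 52.7 to 90.4%) and at 49 of 61 members without such a partner (80.3%, 68.7 to 88.4%). CpG-rich promoters differed more, with 79.5% (77.4 to 81.5%) for those with a partner and 59.2% (58.3 to 60.2%) for those without. Among CpG-rich members a peak was found at 12 of 15 with a partner (80%, 54.8 to 93.0%) and at 41 of 51 without (80.4%, 67.5 to 89.0%). The windows of a pair overlap, so its genes mostly share their peaks by construction. A single peak covered both starts for 9 of the 13 members with a partner and a peak. Counted by pairs it was 8 of 12 (66.7%, 39.1 to 86.2%), near the 65% (61.3 to 68.6%) of CpG-rich pairs. The nearest centre was closer to the start of the mitochondrial ribosomal protein gene in 7 of the 13.

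The pairs join the mitoribosome to various other functions. The starts of MRPL49 and FAU, which encodes a cytosolic ribosomal protein fused to a ubiquitin-like protein, are only 6 bp apart, and a peak of 252 bp covered both. MRPL27 and EME1, a subunit of a structure-specific endonuclease, start 13 bp apart inside a peak of 362 bp. MRPL21 and IGHMBP2, a helicase gene mutated in spinal muscular atrophy with respiratory distress, start 28 bp apart in a peak of 208 bp. MRPL36 and MRPL47 are each paired with a complex I gene, NDUFS6 and NDUFB5, and the distance between starts is 41 bp in both pairs. The MRPL36 pair had a peak of 324 bp across both starts, whereas the MRPL47 pair had none, the nearest being 10630 bp from MRPL47. MRPL46 and MRPS11, the only members to share a peak, start 63 bp apart and so place a large-subunit and a small-subunit gene on a single peak of 355 bp, at chr15:89010603-89010957. Others included MRPL52 with the amino acid transporter gene SLC7A7 at 59 bp, MRPS18C with the helicase gene HELQ at 77 bp, MRPL57 with the kinetochore gene SKA3 at 106 bp, MRPL18 with the chaperonin gene TCP1 at 109 bp and MRPS12 with SARS2, the mitochondrial seryl-tRNA synthetase gene, at 181 bp. At MRPS12 and MRPL57 the start of the member was outside the peak, whose centre was closer to the partner. Besides MRPL47, the partnered members without a peak were MRPL10 with LRRC46, MRPL32 with the proteasome gene PSMA2 and MRPL50 with ZNF189.

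Short motifs of factors known to act at housekeeping promoters were then counted from 250 bp upstream to 50 bp downstream of the 5' end, on both strands. The ETS letters CCGGAAG were present in 26 of 78 members (33.3%, 23.9 to 44.4%), against 17.6% (16.9 to 18.3%) of CpG-rich promoters. The YY1 letters AAGATGGC were present in 15 (19.2%, 12 to 29.3%), against 4.08% (3.73 to 4.45%). MRPL46 and MRPS11 are both counted for the same bases, 10 bp from the start of MRPL46 and -80 bp from that of MRPS11. The NRF1 letters GCGCATGC were found in 8 (10.3%, 5.29 to 19.0%), against 5.60% (5.20 to 6.04%), an overlap of the intervals. The SP/KLF letters GGGCGG were less frequent, in 45 members (57.7%, 46.6 to 68.0%) against 75% (74.2 to 75.7%). The CRE letters TGACGTCA were in no member, which leaves an upper bound of 4.69%, against 3.41% of CpG-rich promoters. CACGTG was found in 8.97% and 10.2%, CCAAT in 29.5% and 35.1%, TATAAA in 5.13% and 5.18%, and AGATAA in 2.56% and 4.05%. GGGCGG can overlap a G4 motif. A match shows only that these letters are there, not that a factor binds.

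The ETS, NRF1 and YY1 letters were more frequent at the members without a peak, the reverse of their order at CpG-rich promoters. At least 1 of the ETS, NRF1 and YY1 letters was present in 12 of the 16 members without a peak (75%, 50.5 to 89.8%) and in 25 of the 62 with a peak (40.3%, 29.0 to 52.7%). At CpG-rich promoters it was 17.3% (16.2 to 18.5%) without a peak and 29.3% (28.3 to 30.4%) with 1. The YY1 letters were in 6 of 16 members without a peak (37.5%, 18.5 to 61.4%) and in 9 of 62 with a peak (14.5%, 7.83 to 25.3%), and the ETS letters in 8 of 16 and 18 of 62. CCAAT had the same order, with 8 of 16 and 15 of 62. The other motifs did not, since GGGCGG was in 8 of 16 members without a peak and 37 of 62 with a peak and CACGTG in 1 and 6, while TATAAA and AGATAA were in none of the members without a peak and in 4 and 2 of those with 1. The intervals of the members overlapped for each factor and for the combined count, which was not a planned measure, and the difference was not tested. Of the CpG-rich members with the ETS letters, 16 of 22 had a peak (72.7%, 51.8 to 86.8%), against 73.2% of CpG-rich promoters with them. For the NRF1 letters it was 71.4% against 71.7%, and for the YY1 letters 50% (25.4 to 74.6%) against 77.8% (73.8 to 81.3%).

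**Figure D5:**
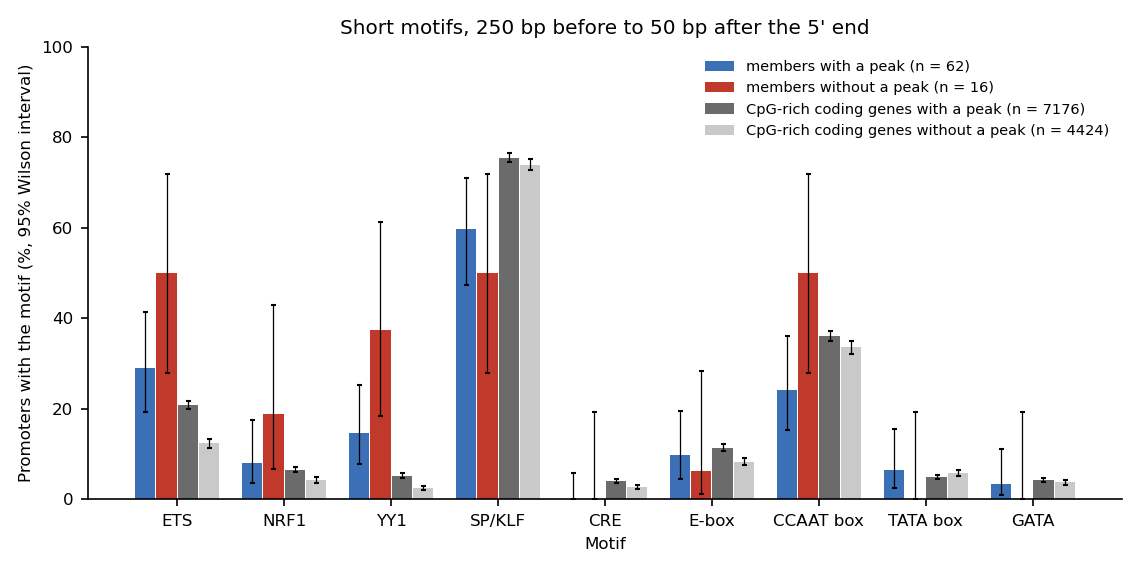
Percentage of promoters with each short motif from 250 bp upstream to 50 bp downstream of the 5' end, with 95% Wilson intervals, for members and CpG-rich coding genes with and without a peak. For ETS, NRF1 and YY1 the bars of the members without a peak (red, 16 genes) are higher than those with a peak (blue, 62 genes), whereas light grey bars are lower than dark grey bars.

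At some members the YY1 letters coincided with the start of translation. In 7 of the 15 members with them the letters held an annotated start codon of the gene, whose ATG is within AAGATGGC (46.7%, 24.8 to 69.9%). At CpG-rich promoters it was 143 of 473 (30.2%, 26.3 to 34.5%), a share within the members' interval. In all 7 the next 3 bases were GGC, against 62 of 143 (43.4%, 35.5 to 51.5%). Of the 7 genes 3 had a peak, MRPL46, MRPS10 and MRPS18B (42.86%, 15.82 to 74.95%), and MRPL22, MRPL50, MRPS18A and MRPS30 had none. At CpG-rich promoters a peak was found at 114 of 143 (79.7%, 72.4 to 85.5%). The intervals overlapped, and the difference was not tested. These 7 genes were chosen after their values were seen. The sequences below are 28 bases on the gene strand with the YY1 letters in capitals, and each lies in an annotated exon of the gene but for the first base at MRPS10 and MRPS18A, which is 1 bp upstream of the 5' end. Positions in hg19 are chr15:89010594-89010621 (minus) for MRPL46, chr6:42185573-42185600 (minus) for MRPS10, chr6:30585630-30585657 (plus) for MRPS18B, chr5:154320658-154320685 (plus) for MRPL22, chr9:104160860-104160887 (minus) for MRPL50, chr6:43655502-43655529 (minus) for MRPS18A and chr5:44809052-44809079 (plus) for MRPS30.
MRPL46, with a peak: gggagaacgaAAGATGGCggcgcccgta
MRPS10, with a peak: cgggaccggcAAGATGGCggcgcggaca
MRPS18B, with a peak: ggcgtacgtcAAGATGGCggcgtctgta
MRPL22, without a peak: gggagggcgaAAGATGGCggcggcagta
MRPL50, without a peak: gatctcatcgAAGATGGCggcgcgatct
MRPS18A, without a peak: taggtttttgAAGATGGCggccctcaag
MRPS30, without a peak: atcgcgggcaAAGATGGCggcggccagg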

How the data were processed

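SMARCA4 ChIP-seq of K562 cells was analysed from 1 list of regions. The authors used cutadapt 1.16 for trimming, BWA 0.7.15 for alignment (hg19), Picard 2.14.0 and SAMtools 1.6 to remove duplicates, MACS2 2.1.1 (q below 0.05) for peaks and bedtools 2.26.0 to keep regions shared by 2 or more of 3 replicates. The deposited region list, the only file used, holds coordinates in bp without score or height.

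Genes came from GENCODE 44 lifted to hg19 (254367 transcripts). A gene had a peak when at least 1 bp overlapped 1 kb on either side of its 5' end. Python 3.11.15, numpy 2.4.6, scipy 1.17.1, pysam 0.24.0 and matplotlib 3.10.9 were used. Shares carry Wilson intervals and medians binomial intervals. No significance test was run, because the list pools the replicates. Overlap and motif functions were tested on simulated data with planted answers. G4 motifs did not overlap each other on a strand.

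Named genes were those without a peak, the 5 widest and 5 narrowest, the 5 closest and 5 farthest, the 5 with most G4 motifs in peaks, those sharing a peak, the 5 closest pairs and those next to the window's limit. Members, lists and rules were chosen with earlier results of these data known. Alternatives covered peak width and merging, autosomes, windows, starts, CpG and G4 definitions and partners.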

Additional observations from a re-analysis of the deposited data

How the results depend on the processing

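Of 73 alternatives, 59 gave a value within the 95% interval of the main result and 14 outside it. The median centre from canonical starts, -60 bp against -9.75 bp, is counted among the 59 because it falls on the bound of that interval. The share of mitochondrial ribosomal protein genes with a peak stayed between 75.6 and 80.8%. The share of CpG-rich coding promoters (61.9%) became 58.1% with peaks of at least 200 bp, 62.9% on autosomes, 58.3, 60.6 and 62.8% within 250 bp, 500 bp and 2 kb, 63.3% from any coding transcript, 66.5% with GC of 55% and a CpG ratio of 0.75, and 63.6% with the definition applied over 2 kb. Median peak width (399 bp) became 515 bp when peaks up to 500 bp apart were merged. Loops of up to 12 bases raised genes with a G4 motif from 52.6 to 75.6% and peaks with a motif from 29.5 to 44.9%, and peaks with a motif near the centre were 15.4%. Overlapping partners raised the partner share from 21.8 to 34.6%, and canonical starts raised starts inside a peak from 82.3 to 93.7%. These last 2 were chosen after seeing the data. No paired analysis was possible because the list pools the replicates and holds no value per replicate, and for the same reason no library could be left out. Without heights or reads, weak and strong peaks count alike, a gene without a peak may lie below the detection limit, and batch, antibody and crosslinking cannot be separated from signal. The 16 genes without a peak are few, neighbouring and paired genes are not independent, and 1 cell line was used. Where members and CpG-rich promoters differed, the cause was not tested.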
